A study of Mus musculus with 64 samples.

Results

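The voltage-gated sodium and calcium channel subunits were taken as every row of the expression table whose symbol begins with Scn and a digit, or with Cacna, Cacnb or Cacng. The rule found 40 of the 30285 gene entries. There were 14 sodium channel genes (10 alpha and 4 beta subunits) and 26 calcium channel genes (10 alpha1, 4 alpha2delta, 4 beta and 8 gamma subunits). All 64 libraries were RNA-seq libraries of cardiac tissue from adult male C57BL6 mice operated on at 3 to 4 months of age, 1 library per heart. The mice were wild type (WT) or carried a cardiac deletion of Ndufs4, a subunit of mitochondrial complex I, made by Cre recombinase under the αMHC promoter, which is active in cardiomyocytes (KO). Each genotype received sham surgery (WTSH, KOSH) or transverse aortic constriction (WTTAC, KOTAC), which narrows the aorta and loads the left ventricle with pressure. Whether the WT mice carried the loxP gene or Cre was not given, and the tissue was not sorted into cell types. Hearts were collected 1, 2, 4 and 8 weeks later, with 4 hearts in each of the 16 groups and 16 in each condition. Levels are FPKM, the fragments counted per length of transcript and per number of mapped fragments, which are scaled for transcript length and can be compared between genes.

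Voltage-gated sodium channels carry the fast inward current of the cardiac action potential upstroke, and L-type calcium channels carry the slower inward current that triggers calcium release and contraction. Each channel is built around 1 large pore-forming alpha subunit. Sodium channel beta subunits are small membrane proteins that set gating and membrane placement, whereas calcium channels add an intracellular beta subunit, an extracellular alpha2delta subunit and, in some tissues, a gamma subunit. Among the pore genes, Cacna1c is the main L-type gene of the heart, Scn4a and Cacna1s are those of skeletal muscle, and many of the others are best known in neurons.

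The 300-base windows around the annotated starts of 4 members are shown because these genes are among those whose levels differed most between TAC and sham hearts: Scn4a, Scn4b and Cacna1s were lower after TAC and Cacnb1 was higher. Sequences are from RefSeq (table of build GRCm38.p6), 250 bases before to 50 after the start, 5′ to 3′ on the gene's strand, and each was matched without mismatch to mm9. The mm9 positions are chr11:106210655-106210954 (minus strand) for Scn4a, chr9:44946457-44946756 (plus) for Scn4b, chr1:137949138-137949437 (plus) for Cacna1s and chr11:97883892-97884191 (minus) for the upstream of the 2 Cacnb1 starts. Capitals mark matches to the E box CANNTG or the GC box GGGCGG on either strand, and no E box overlapped a GC box.
Scn4a: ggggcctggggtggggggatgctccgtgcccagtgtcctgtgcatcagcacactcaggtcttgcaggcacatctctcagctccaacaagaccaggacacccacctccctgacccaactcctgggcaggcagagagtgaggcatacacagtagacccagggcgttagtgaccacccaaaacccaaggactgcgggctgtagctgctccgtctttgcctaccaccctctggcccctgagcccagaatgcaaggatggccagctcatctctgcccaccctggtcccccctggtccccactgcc
Scn4b: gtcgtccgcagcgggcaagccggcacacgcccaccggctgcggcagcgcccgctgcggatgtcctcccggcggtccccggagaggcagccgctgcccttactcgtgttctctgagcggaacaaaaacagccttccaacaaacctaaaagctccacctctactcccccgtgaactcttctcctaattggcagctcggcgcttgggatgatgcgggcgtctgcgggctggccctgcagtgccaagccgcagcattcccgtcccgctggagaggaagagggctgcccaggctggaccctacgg
Cacna1s: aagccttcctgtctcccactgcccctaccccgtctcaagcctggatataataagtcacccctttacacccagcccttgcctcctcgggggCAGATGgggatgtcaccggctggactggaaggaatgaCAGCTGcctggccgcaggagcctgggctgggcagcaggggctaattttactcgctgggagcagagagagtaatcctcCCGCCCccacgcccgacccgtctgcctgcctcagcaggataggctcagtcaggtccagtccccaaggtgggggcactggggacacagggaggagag
Cacnb1: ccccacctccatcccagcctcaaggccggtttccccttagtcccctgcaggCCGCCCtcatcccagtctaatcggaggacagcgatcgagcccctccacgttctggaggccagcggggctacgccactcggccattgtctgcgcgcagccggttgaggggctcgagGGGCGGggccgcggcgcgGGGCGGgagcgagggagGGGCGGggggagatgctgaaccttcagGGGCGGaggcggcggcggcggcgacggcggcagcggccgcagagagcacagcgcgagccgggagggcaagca
The Cacna1s window held 2 E boxes and 1 GC box, and the Cacnb1 window shown held 5 GC boxes and no E box. The window of the other Cacnb1 start held 1 E box and no GC box. Neither motif was found in the Scn4a and Scn4b windows. The Scn4a window lies inside the GENCODE span of the gene, whose 5′ end is at 106214602, and the sequence around that end was not examined. Among all 32851 promoter windows of this length in the table, 72.3% held an E box and 35.7% a GC box. The core motif of MEF2, a muscle transcription factor, which occurs in 3.69% of all windows, and the TATA box TATAAA, in 13.6%, were in none of the 16 windows of the 11 tested members with an entry. These matches describe the windows only. Of the 40 members 29 matched an entry, and those without one included Cacna1a, Cacna1g and Cacna1h.

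Of the 40 members, 16 passed the filter of at least 1 FPKM in at least 4 libraries and were tested with the other genes that passed, 13653 in all. The tested members were 3 sodium alpha, 2 sodium beta, 5 alpha1, 2 alpha2delta, 3 calcium beta and 1 gamma subunit. The filter can be passed by high values in 1 condition only, so the 16 are not a neutral sample of the 40. By the median of all 64 hearts, 6 members stood at 10 FPKM or more, 7 between 1 and 10, 10 between 0.1 and 1, and 17 below 0.1 FPKM. Cacng2 was listed at 0 in every heart, and 24 members were never listed at 0. Between 12 and 15 members reached 1 FPKM in a single heart.

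**Figure D1:**
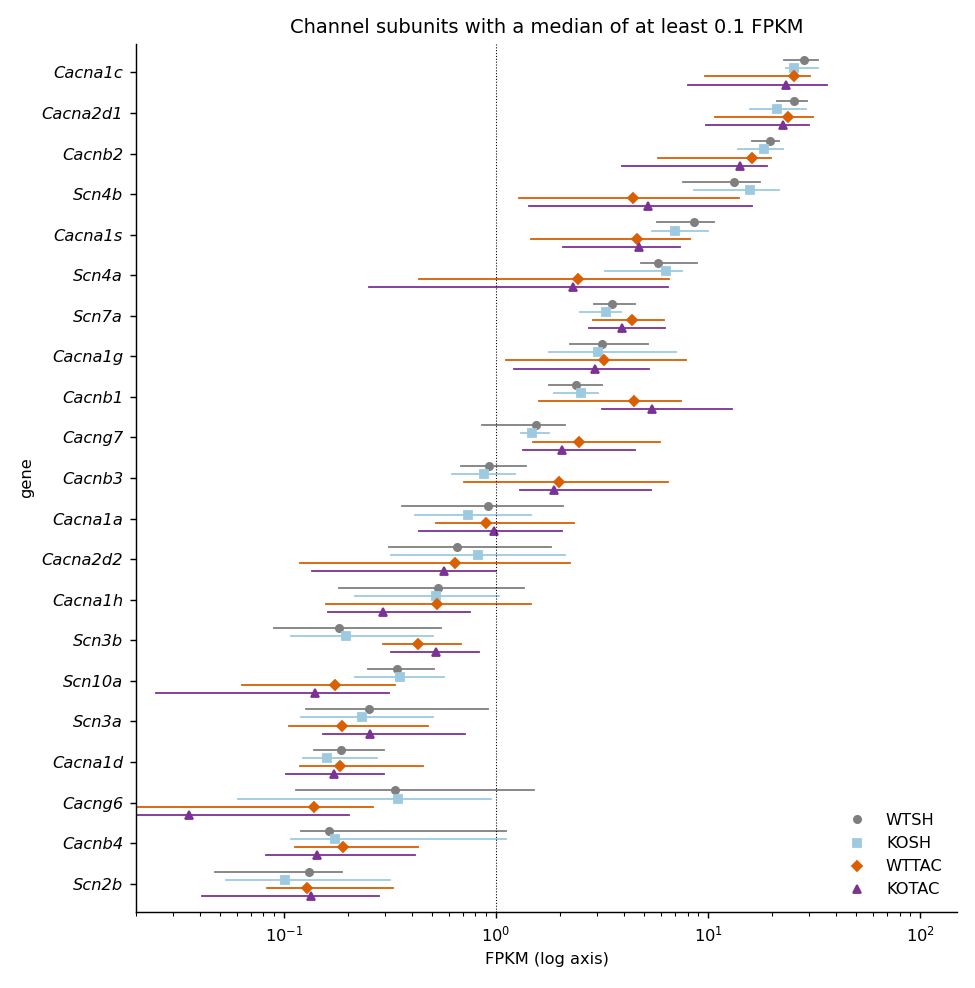
FPKM on a log axis for 21 of the 23 members with a median of at least 0.1 FPKM. Symbols are the median of the 16 hearts of a condition and lines run from the lowest to the highest heart (lines that reach the left edge extend to 0), and the dotted line is 1 FPKM. Cacna1c and Cacna2d1 are at the top, and the 4 conditions part most for Scn4b, Cacna1s, Scn4a, Cacnb1, Cacnb3, Scn3b, Scn10a and Cacng6.

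In the WTSH hearts Cacna1c, which encodes the L-type pore Cav1.2, ranged from 22.7 to 32.9 FPKM (median 28.2) and overlapped Cacna2d1, the main cardiac alpha2delta subunit, at 21.1 to 29.2 (median 25.6). Cacnb2, the main cardiac calcium channel beta subunit, followed at 16.2 to 21.5 (median 19.6), and its range touched that of Cacna2d1. Scn4b at 7.64 to 17.5 (median 13.3), Cacna1s at 5.77 to 10.7 (median 8.55) and Scn4a at 4.82 to 8.83 (median 5.78) followed, with ranges that overlapped their neighbours. Next came Scn7a (median 3.52), the T-type pore Cacna1g (3.15), Cacnb1 (2.40) and Cacng7 (1.54). The skeletal muscle pores Scn4a and Cacna1s were present in every heart. The 10 skeletal muscle markers, such as Mylpf and Tnnt3, together summed to between 2.37 and 39.7 FPKM per heart over all conditions.

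Ndufs4 fell with the genotype label in every KO heart: it ranged from 59.0 to 188 FPKM in the 32 WT hearts and from 20.3 to 43.8 in the 32 KO hearts. In 4 libraries of week 2 (hearts 3 and 4 of WTTAC and hearts 3 and 4 of KOTAC), values fell with transcript length, with slopes of -0.144 to -0.117 in log2(FPKM + 1) per doubling of length. The other 60 libraries had slopes of -0.056 to 0.0707. The longest annotated transcripts of the 5 tested alpha1 subunits ran from 6251 bases (Cacna1s) to 8383 (Cacna1g), so results that rest on these 4 libraries are given with and without them. In 8 hearts, the 6 atrial markers (Myl7, Myl4, Sln and others) summed to between 117 and 821 FPKM, against at most 69.4 in the other 56 hearts. They were 4 WTTAC, 3 KOSH and 1 WTSH heart. The 10 cardiomyocyte markers summed to at least 38608 FPKM in every heart.

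TAC was compared with sham within each genotype over the 4 weeks to ask which channel genes differ under pressure overload. The calcium channel beta subunits moved in opposite directions, and the skeletal muscle pores were lower. In WTTAC vs. WTSH, 10 of the 16 tested members had an adjusted p under 0.05 (limma, Benjamini-Hochberg over all genes tested), 5 higher and 5 lower. Among them Cacnb3, Cacnb1, Cacng7 and Scn7a were higher and Scn4b, Scn4a, Cacna1s, Cacnb2 and Cacna1c lower. In KOTAC vs. KOSH the same 10 were called in the same directions, and Cacna2d2 and Cacna1h were also lower, which makes 12. TAC moved most of the transcriptome: 59.9% of all genes tested were called in WTTAC vs. WTSH (48.2% higher and 11.7% lower) and 62.0% in KOTAC vs. KOSH (48.0% higher and 14.0% lower). The counts of 10 and 12 of 16 are near this background. The median of the 16 members was -0.06 in WTTAC vs. WTSH and -0.13 in KOTAC vs. KOSH on the log2 scale, beside 0.14 and 0.13 for all genes tested.

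The shift of all genes by 0.14 and 0.13 depends on how the libraries were scaled. After median-of-ratios scaling the median gene stood at 0.01 in both comparisons, with 4012 genes called higher and 3628 lower in WTTAC vs. WTSH in place of 6574 and 1599, and with 4166 and 3895 in KOTAC vs. KOSH in place of 6547 and 1915. The 12 members called in either comparison kept their directions, but Scn7a was no longer called in either genotype. Then 4 members were higher and 6 lower in WTTAC vs. WTSH, and 4 higher and 9 lower in KOTAC vs. KOSH. Cacna2d1 joined the lower ones in both genotypes and Cacna1g in the KO.

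**Figure D2:**
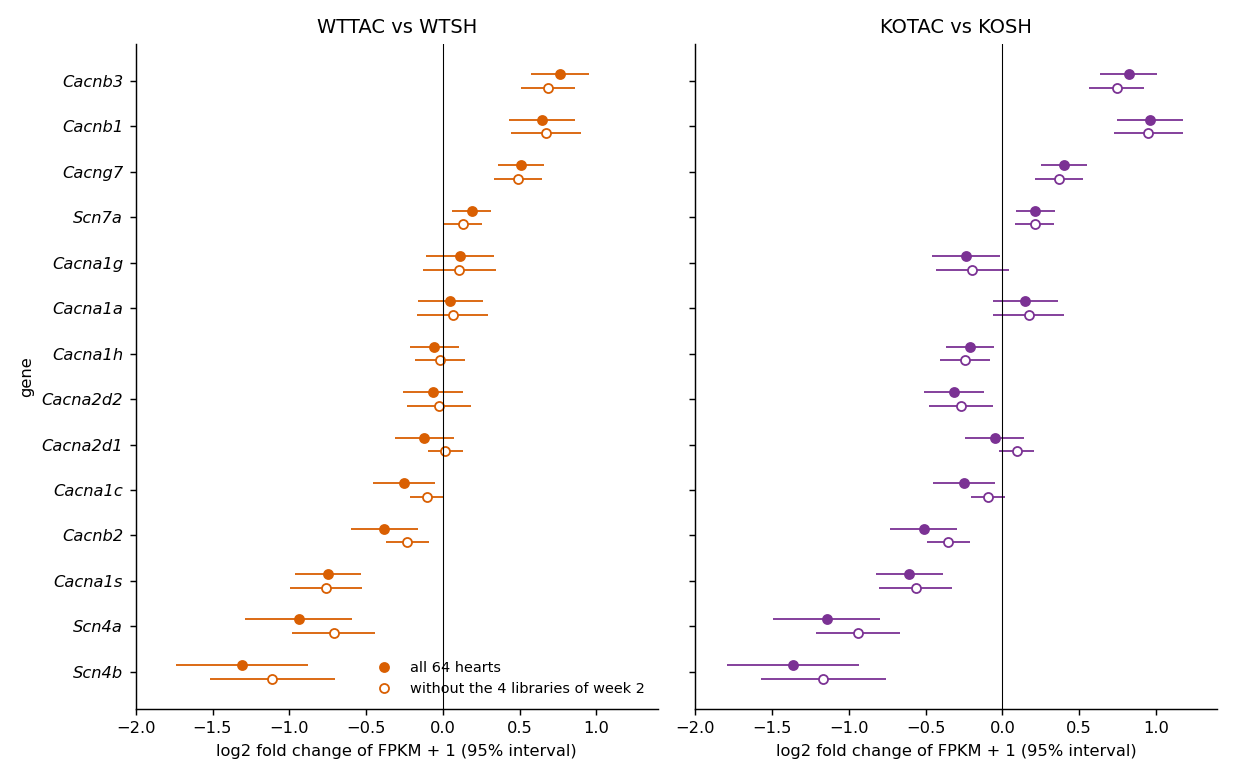
Log2 fold change of FPKM + 1 with its 95% interval for 14 of the 16 tested members, TAC against sham in WT (left) and KO (right). Filled points use all 64 hearts and open points leave out the 4 length-biased libraries of week 2. The largest fall was that of Scn4b (-1.31 and -1.36), the largest rises shown were those of Cacnb3 (0.76) in WT and Cacnb1 (0.96) in KO, and Cacnb2 moved in WT from -0.38 to -0.23 without the 4 libraries.

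Scn4b (chr9:44946520-44962235, plus strand) encodes the beta4 subunit and had the largest fold change of the 16 tested members in size. It ranged from 7.64 to 17.5 FPKM (median 13.3) in WTSH and from 1.29 to 14.0 (median 4.44) in WTTAC, and from 8.56 to 21.5 (median 15.8) in KOSH and 1.43 to 16.1 (median 5.23) in KOTAC. In WT, 12 of 16 TAC hearts were below every sham heart, and in KO 11 of 16. The fitted log2 change was -1.31 ± 0.22 (SE, adjusted p = 9.67e-07) in WTTAC vs. WTSH and -1.36 ± 0.22 (adjusted p = 3.56e-07) in KOTAC vs. KOSH. The fall was uneven between hearts. At week 8 of WTTAC, 3 hearts were at 2.91, 3.00 and 3.31 FPKM and heart 2 was at 14.0, inside the WTSH range of 13.0 to 17.5. At week 8 of KOTAC the hearts were at 3.17, 3.27, 5.24 and 13.9 against 12.4 to 18.9 in KOSH. At week 1 of KOTAC they were at 1.80, 4.99, 5.45 and 16.1 against 8.56 to 17.2, and at week 4 of WTTAC at 5.18, 6.38, 7.501 and 9.71 against 12.7 to 16.6, all below. At week 4 in WT, 7.05% of all genes tested were free of overlap.

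Scn4a (chr11:106179906-106214602, minus strand), the skeletal muscle pore Nav1.4, was lower after TAC. It ranged from 4.82 to 8.83 FPKM (median 5.78) in WTSH, 0.432 to 6.54 (median 2.43) in WTTAC, 3.25 to 7.55 (median 6.33) in KOSH and 0.252 to 6.50 (median 2.31) in KOTAC. In each genotype 13 of 16 TAC hearts were below every sham heart. On the log2 scale the difference was -0.94 ± 0.17 (adjusted p = 7.05e-06) in WTTAC vs. WTSH and -1.14 ± 0.17 (adjusted p = 1.34e-07) in KOTAC vs. KOSH. Its lowest hearts were the 4 length-biased libraries at 0.252, 0.362, 0.432 and 0.985 FPKM, and without them the values were -0.71 ± 0.13 and -0.94 ± 0.13. At week 8, away from those libraries, the WTTAC hearts were at 1.34, 1.65, 2.02 and 3.68 FPKM against 4.82, 5.38, 5.38 and 8.83 in WTSH. The KOTAC hearts of week 8 were at 1.39, 1.42, 1.75 and 2.74 against 3.25, 6.02, 6.34 and 7.35 in KOSH, and neither genotype overlapped. In that week 21.5% of all genes tested were free of overlap in WT and 40.3% in KO. At week 1 WTTAC heart 5 stood at 6.14 FPKM while the other 3 were at 2.25 to 2.45, against 5.13 to 8.81 in WTSH.

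Scn7a, which encodes Nax, a sodium-sensing relative that is not gated by voltage in the usual way, was slightly higher. Its medians were 3.52 FPKM in WTSH (2.89 to 4.52), 4.36 in WTTAC (2.88 to 6.18), 3.30 in KOSH (2.49 to 3.89) and 3.92 in KOTAC (2.75 to 6.27). The log2 fold changes of 0.19 ± 0.06 (adjusted p = 0.00858) and 0.21 ± 0.06 (adjusted p = 0.003) were close to the shift of the median gene. After median-of-ratios scaling they were 0.06 (adjusted p = 0.40) and 0.09 (adjusted p = 0.209). Without the 4 length-biased libraries the call was lost in WT (0.13 ± 0.06, adjusted p = 0.0677) and not in KO (0.21 ± 0.06, adjusted p = 0.00327).

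Scn10a and Scn3b, sodium channel members below the filter, differed in a fit with no filter on low values, in which 38.9% of 24564 genes were called in WTTAC vs. WTSH and 39.8% in KOTAC vs. KOSH. Scn10a, the Nav1.8 pore best known in sensory neurons, was lower: 0.25 to 0.509 FPKM (median 0.34) in WTSH against 0.0634 to 0.335 (median 0.174) in WTTAC, and 0.216 to 0.57 (median 0.352) in KOSH against 0.0249 to 0.314 (median 0.139) in KOTAC. On the log2(FPKM + 1) scale, which understates changes at such levels, the differences were -0.18 ± 0.03 (adjusted p = 2.73e-05) and -0.24 ± 0.03 (adjusted p = 5.97e-08). Every TAC heart lay below the median of its sham condition. Scn3b, the beta3 subunit, was higher: 0.0895 to 0.549 FPKM (median 0.182) in WTSH against 0.292 to 0.681 (median 0.43) in WTTAC, and 0.108 to 0.505 (median 0.197) in KOSH against 0.318 to 0.827 (median 0.519) in KOTAC. Its differences were 0.23 ± 0.04 (adjusted p = 1.7e-05) and 0.32 ± 0.04 (adjusted p = 1.97e-08). In two-sided permutation tests of single genes with 100000 resamples, 1 of 45 comparisons each, both genes gave 2e-05 in both genotypes, the smallest value possible, unadjusted. Of the 23 members below the filter that were in this fit, 5 were called in WT and 6 in KO.

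Among the calcium channel pores, Cacna1s was lower, and the call of Cacna1c over the 4 weeks was lost without the length-biased libraries. Cacna1s (chr1:137949327-138016399, plus strand) encodes Cav1.1, the voltage sensor of skeletal muscle. It ranged from 5.77 to 10.7 FPKM (median 8.55) in WTSH, 1.47 to 8.20 (median 4.61) in WTTAC, 5.45 to 10.02 (median 7.02) in KOSH and 2.07 to 7.38 (median 4.73) in KOTAC. In WT, 12 of 16 TAC hearts lay below every sham heart, and in KO 11 of 16. The log2 fold change was -0.75 ± 0.11 (adjusted p = 6.71e-08) in WTTAC vs. WTSH and -0.61 ± 0.11 (adjusted p = 3.45e-06) in KOTAC vs. KOSH. At week 1 the WTTAC hearts were at 1.47, 2.91, 3.81 and 4.65 FPKM against 5.77, 8.33, 9.20 and 9.95 in WTSH. The KOTAC hearts of week 1 were at 2.07, 3.28, 4.42 and 4.62 against 5.55, 6.46, 7.30 and 10.02 in KOSH. In that week 49.5% of all genes tested were free of overlap in WT and 36.2% in KO. By week 8 the KOTAC hearts, at 4.85, 6.42, 6.83 and 7.38, overlapped KOSH at 5.71 to 9.04.

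Cacna1c (chr6:118542314-119146249, minus strand) had medians of 28.2 FPKM in WTSH (22.7 to 32.9), 25.5 in WTTAC (9.65 to 30.2), 25.4 in KOSH (23.2 to 33.1) and 23.4 in KOTAC (8.01 to 36.2). It was called lower in both genotypes, at -0.25 ± 0.10 (adjusted p = 0.0261) in WT and -0.25 ± 0.10 (adjusted p = 0.0264) in KO. After median-of-ratios scaling, with all hearts kept, it was -0.41 in both (adjusted p = 0.00037 and 0.000329). The 4 length-biased libraries held its lowest values, 8.01, 8.61, 9.65 and 10.3 FPKM, and without them it was not called (-0.10 ± 0.06, adjusted p = 0.105, and -0.10 ± 0.06, adjusted p = 0.131). Leaving out heart 3 or heart 4 of WTTAC week 2 lost the WT call (-0.21 and -0.20), and leaving out heart 3 or 4 of KOTAC week 2 (-0.20 and -0.20) or heart 3 of KOSH week 1 (-0.23) lost the KO call. Without the 8 hearts with high atrial markers it was not called either (-0.26, adjusted p = 0.0639, and -0.21, adjusted p = 0.104). Cacna2d1 was called in neither genotype (-0.12 ± 0.09 and -0.05 ± 0.09), with sham medians of 25.6 and 21.1 FPKM and TAC medians of 23.8 and 22.5.

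Calcium channel beta subunits, which bind the alpha1 subunit inside the cell and promote its surface expression, moved apart. Cacnb1 (chr11:97862822-97884348, minus strand), the beta1 subunit of skeletal muscle, ranged from 1.78 to 3.15 FPKM (median 2.40) in WTSH, 1.60 to 7.45 (median 4.46) in WTTAC, 1.87 to 3.02 (median 2.53) in KOSH and 3.15 to 12.9 (median 5.47) in KOTAC. The 16 KOTAC hearts all lay above the 16 KOSH hearts. On the log2 scale it differed by 0.65 ± 0.11 (adjusted p = 9.87e-07) in WTTAC vs. WTSH and 0.96 ± 0.11 (adjusted p = 7.99e-11) in KOTAC vs. KOSH. At week 2 WTTAC, at 1.60, 2.68, 3.24 and 3.70 FPKM, overlapped WTSH at 2.15 to 2.65. At week 8 WTTAC was at 2.87, 5.57, 7.00 and 7.32 against 1.85 to 2.73, and KOTAC at 3.15, 6.67, 6.76 and 12.9 against 1.93 to 2.20, with no overlap in either genotype. The same held at week 8 for 21.5% of all genes tested in WT and 40.3% in KO.

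Cacnb3 (chr15:98462651-98474961, plus strand), a beta subunit known from neurons and smooth muscle, ranged from 0.682 to 1.39 FPKM (median 0.928) in WTSH, 0.704 to 6.46 (median 1.97) in WTTAC, 0.622 to 1.22 (median 0.874) in KOSH and 1.30 to 5.38 (median 1.88) in KOTAC. In KO, as for Cacnb1, the 16 TAC hearts did not overlap the 16 sham hearts, which held for 3.33% of all genes tested. In WT no member was free of overlap, beside 0.322% of all genes, although 14 of 16 TAC hearts exceeded every sham heart in Cacnb3. The fitted log2 fold change was 0.76 ± 0.09 (adjusted p = 2.01e-09) in WTTAC vs. WTSH and 0.82 ± 0.09 (adjusted p = 1.75e-10) in KOTAC vs. KOSH. At week 1 WTTAC was at 2.44, 4.83, 5.01 and 6.46 FPKM against 0.682, 0.913, 0.943 and 1.11 in WTSH, and KOTAC at 1.88, 3.81, 4.51 and 5.38 against at most 1.07 in KOSH. Of all genes tested, 49.5% in WT and 36.2% in KO were free of overlap in that week.

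Cacnb2 (chr2:14525933-14909535, plus strand) was lower. It ranged from 16.2 to 21.5 FPKM (median 19.6) in WTSH, 5.81 to 19.7 (median 16.2) in WTTAC, 13.9 to 22.6 (median 18.4) in KOSH and 3.93 to 18.9 (median 14.2) in KOTAC. In WT, 15 of 16 TAC hearts lay below the sham median, and in KO 15 of 16. Its log2 fold change was -0.38 ± 0.11 (adjusted p = 0.00214) in WTTAC vs. WTSH and -0.51 ± 0.11 (adjusted p = 5.76e-05) in KOTAC vs. KOSH. The 4 length-biased libraries, at 3.93, 5.09, 5.81 and 6.75 FPKM, held its lowest values. Without them the fold change was -0.23 ± 0.07 (adjusted p = 0.00334) and -0.35 ± 0.07 (adjusted p = 2.04e-05), still called. At week 4 the WTTAC hearts were at 16.8, 17.6, 17.8 and 19.2 against 18.8, 20.5, 21.2 and 21.3 in WTSH, and the KOTAC hearts at 14.2, 15.6, 15.7 and 18.9 against 18.4, 19.2, 19.3 and 19.7 in KOSH. The median ratio of Cacnb2 to Cacnb1 in a heart was 7.77 in WTSH and 3.49 in WTTAC, and 7.22 in KOSH and 2.56 in KOTAC, as a description. As a share of the summed FPKM of the 4 calcium channel beta subunits, Cacnb2 held a median of 84.0% in WTSH and 70.1% in WTTAC, and 82.6% in KOSH and 65.0% in KOTAC. Cacnb1 held 10.7%, 20.5%, 11.4% and 25.8% in the same order, and Cacnb3 4.07%, 8.08%, 3.93% and 8.21%.

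**Figure D3:**
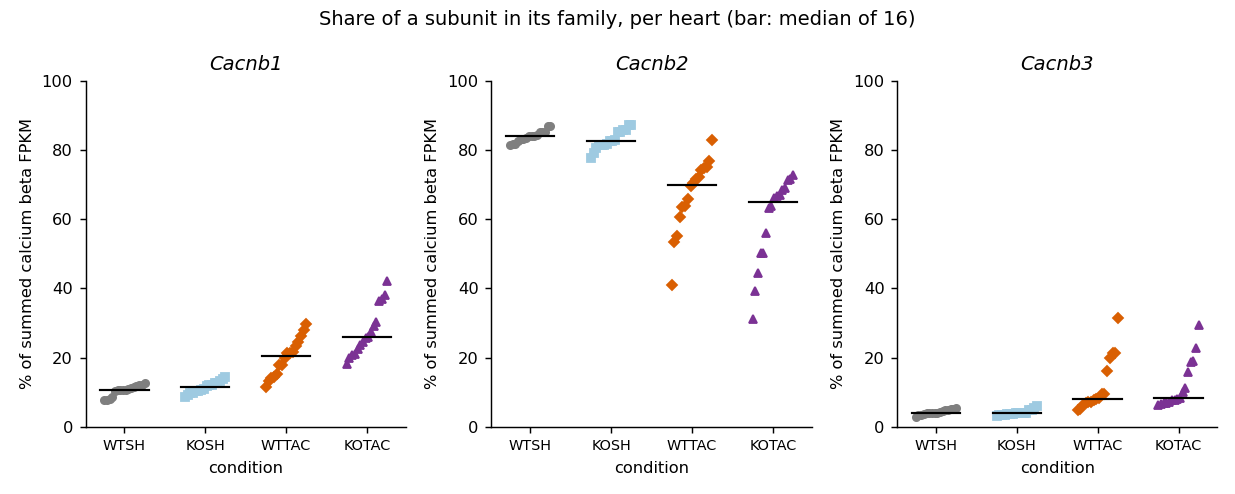
Share of a subunit in the summed FPKM of the 4 calcium channel beta subunits, in percent, for single hearts of the 4 conditions (16 each, placed from lowest to highest), with the median as a bar. Cacnb2 held the largest median share in each condition (84.0% in WTSH, 70.1% in WTTAC, 82.6% in KOSH and 65.0% in KOTAC), and the shares of Cacnb1 and Cacnb3 were larger after TAC by median.

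**Figure D4:**
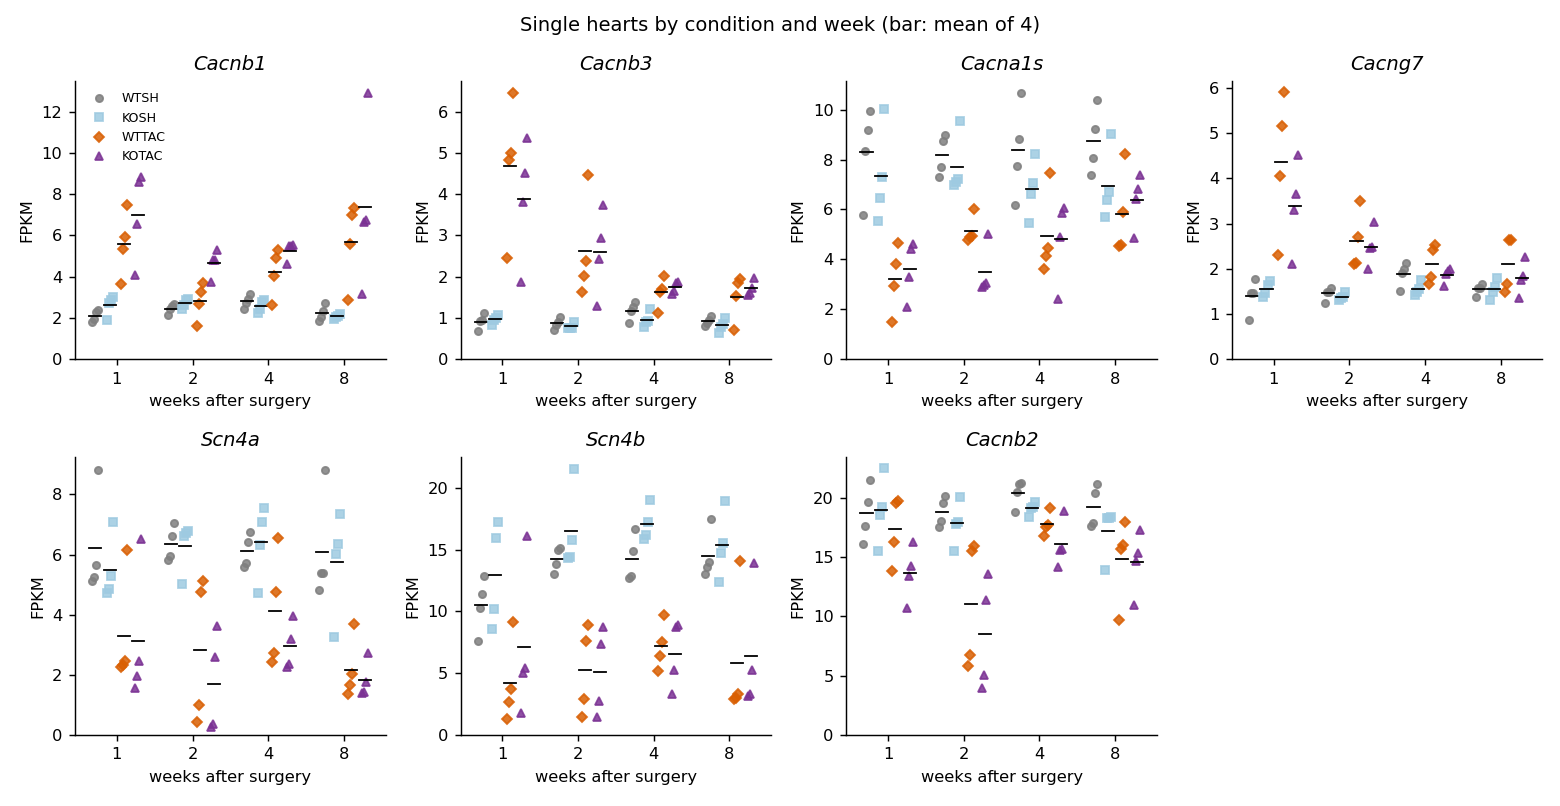
FPKM of single hearts by week after surgery for 7 of the 8 members with the largest test statistic over the TAC comparisons, 4 hearts per condition and week, with the mean as a bar. Cacnb1, Cacnb3 and Cacng7 stand above sham and Cacna1s, Scn4a, Scn4b and Cacnb2 below, with single TAC hearts among the sham values, such as the WTTAC heart at 14.0 FPKM of Scn4b in week 8.

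Gamma subunits are relatives of the skeletal muscle gamma1 subunit, several of which regulate glutamate receptors in neurons. Of the 8, Cacng7 (chr7:3333055-3367810, plus strand) alone passed the filter, and it was higher. It ranged from 0.858 to 2.13 FPKM (median 1.54) in WTSH, 1.49 to 5.91 (median 2.47) in WTTAC, 1.32 to 1.79 (median 1.48) in KOSH and 1.34 to 4.51 (median 2.05) in KOTAC. The log2 difference was 0.51 ± 0.07 (adjusted p = 9.31e-08) in WTTAC vs. WTSH and 0.40 ± 0.07 (adjusted p = 8.45e-06) in KOTAC vs. KOSH. At week 1 WTTAC was at 2.31, 4.05, 5.16 and 5.91 FPKM against 0.858, 1.47, 1.47 and 1.76 in WTSH, where 49.5% of all genes tested were free of overlap. At week 8 KOTAC, at 1.34, 1.76, 1.85 and 2.25, overlapped KOSH at 1.32 to 1.79. In the fit with no filter Cacng6 was lower, at 0.114 to 1.51 FPKM (median 0.333) in WTSH against 0 to 0.264 (median 0.139) in WTTAC, and 0.061 to 0.951 (median 0.344) in KOSH against 0 to 0.202 (median 0.0356) in KOTAC. Its differences were -0.32 ± 0.07 (adjusted p = 0.000127) and -0.37 ± 0.07 (adjusted p = 1.59e-05). Cacng1 was higher in both genotypes (0.06, adjusted p = 0.044, and 0.12, adjusted p = 2.4e-05) and Cacng4 in WT (0.11, adjusted p = 0.000198), at levels of at most 0.3 FPKM.

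Cacna2d2, an alpha2delta subunit, and Cacna1h passed the test in the KO and not in the WT. Only 10 and 4 of the 64 hearts reached 1 FPKM, none of them a KOTAC heart. Both thus passed the filter through hearts of the other conditions alone, so their lower level in KOTAC is not independent of the filter. Cacna2d2 had medians of 0.819 FPKM in KOSH (0.321 to 2.11) and 0.568 in KOTAC (0.135 to 0.998), with a log2 fold change of -0.31 ± 0.10 (adjusted p = 0.00461), against -0.06 ± 0.10 (adjusted p = 0.585) in WT. The T-type pore Cacna1h had medians of 0.524 in KOSH (0.215 to 1.03) and 0.292 in KOTAC (0.161 to 0.753), with -0.21 ± 0.08 (adjusted p = 0.0167), against -0.06 ± 0.08 in WT. The difference between the genotypes was called for neither (interaction 95% intervals -0.53 to 0.03 and -0.38 to 0.07). With quantile normalization both were also called lower in WT, Cacna2d2 at -0.23 (adjusted p = 0.0413) and Cacna1h at -0.22 (adjusted p = 0.0196). High atrial markers went with higher Cacna2d2: the 3 KOSH hearts with high atrial markers stood at 1.55 to 2.11 FPKM of Cacna2d2 against 0.321 to 1.58 in the other 13, and the 4 WTTAC hearts at 0.647 to 2.24 against 0.119 to 0.954 in the other 12. These Cacna2d2 ranges overlapped, and the 1 WTSH heart, at 1.05, lay inside the 0.313 to 1.82 of the other WTSH hearts. Cacna1h was mixed. In the 3 KOSH hearts it stood at 0.649 to 0.885 FPKM (median 0.874), inside the range of 0.215 to 1.03 in the others but above their median of 0.447. The 1 WTSH heart, at 0.787, was above the median of 0.484 in the others. The 4 WTTAC hearts had a median of 0.427 against 0.540 in the others. Without the 8 hearts with high atrial markers Cacna2d2 was still called, and Cacna1h was not (-0.19, adjusted p = 0.056). No KOTAC heart was among the 8.

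Cacna1g, a T-type pore, and Cacna1a, the P/Q-type pore of neurons, were not called over the 4 weeks. Cacna1g had medians of 3.15, 3.02, 3.23 and 2.93 FPKM in WTSH, KOSH, WTTAC and KOTAC, with log2 fold changes of 0.11 ± 0.11 in WT and -0.24 ± 0.11 (adjusted p = 0.0604) in KO. Cacna1a had medians of 0.916, 0.739, 0.897 and 0.974 FPKM. At week 8 the 4 KOTAC hearts, at 1.27, 1.32, 1.64 and 2.05 FPKM, were all above the KOSH hearts at 0.492 to 0.927, and that comparison was called (0.62 ± 0.21, adjusted p = 0.016). Of all genes tested, 40.3% were free of overlap in that comparison and 40.2% were called.

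Members best known outside cardiomyocytes were read beside cell type markers, since in bulk tissue a change in the number of cells of a type and a change in the RNA of each cell cannot be told apart. Endothelial markers were called higher after TAC in 7 of 8 genes in each genotype, and smooth muscle and pericyte markers in 6 of 11 in WT, with 2 lower, and 7 of 11 in KO, with 1 lower. All marker counts stand beside 48.2% of all genes called higher and 11.7% lower in WT, and 48.0% and 14.0% in KO. The smooth muscle and pericyte count in WT is near that share. Fibroblast markers rose in 10 of 11 genes in each genotype, and their sum ranged from 588 to 1010 FPKM in WTSH and from 753 to 3445 in WTTAC. Macrophage markers rose in 9 of 9, with sums of 116 to 244 in WTSH and 124 to 764 in WTTAC. Of the neuron markers 2 of 9 were tested, Uchl1 and Stmn2, and both rose, while Snap25 and Chat were listed at a median of 0 in every condition. Uchl1 went from a median of 6.33 FPKM in WTSH to 28.3 in WTTAC, whereas Dbh, a marker of noradrenergic neurons, stood at 0.407 and 0.369 and Elavl4 at 0.0385 and 0.0121. The fibroblast and macrophage sums had medians in week 1 of WTTAC of 3121 and 653 FPKM against 731 and 139 in WTSH of that week. The week 1 rises of Cacnb3 and Cacng7 stood beside them. Their part in these results was not tested. Beside the lower Scn4a and Cacna1s, 5 of the 10 skeletal muscle markers were tested, of which 1 was higher and 2 lower in WT, and 1 higher and 3 lower in KO. Myh1, a skeletal myosin heavy chain, was lower in both (-0.28 ± 0.06 and -0.28 ± 0.06) and Tnnt3, the fast skeletal troponin T, higher (0.75 ± 0.13 and 0.82 ± 0.13). The median sum of the 10 was 4.52 FPKM in WTSH, 4.89 in WTTAC, 4.64 in KOSH and 3.99 in KOTAC. Of the 10 cardiomyocyte markers 2 rose and 2 fell in WT, and 2 rose and 3 fell in KO.

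Within single weeks, the count of called members followed that of all genes. In WTTAC vs. WTSH, 8 of 16 were called at week 1 (56.0% of all genes), 9 at week 2 (46.4%), 0 at week 4 (0.212%) and 4 at week 8 (16.4%). At week 4, 3 members had an unadjusted p under 0.05. In KOTAC vs. KOSH, 7 were called at week 1 (36.9%), 10 at week 2 (42.4%), 3 at week 4 (10.4%) and 7 at week 8 (40.2%). The week 2 counts were smaller without the length-biased libraries. Leaving these out also leaves fewer TAC hearts, and the part of the length bias in the smaller counts was not tested. Without these libraries Cacnb3 was the 1 member called in WT (0.59 ± 0.20, adjusted p = 0.0279), beside 24.1% of all genes. In KO 5 were called (20.1%), among them Cacnb3, Cacnb2, Cacna1s and Cacna1c. With all hearts the week 2 calls had included Cacna2d1 (-0.59 and -0.50) in both genotypes. Other counts moved by over 1.5 times without single hearts: at week 1 of WT to 5 without WTTAC heart 2, at week 2 of WT to 5 without WTTAC heart 4, at week 4 of KO to 1 without any of KOSH hearts 2, 3 and 4 and KOTAC hearts 2 and 5, and at week 8 of WT to 7 without WTTAC heart 2, 2 without WTTAC heart 5 or 6, and 1 without WTTAC heart 7.

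**Figure D5:**
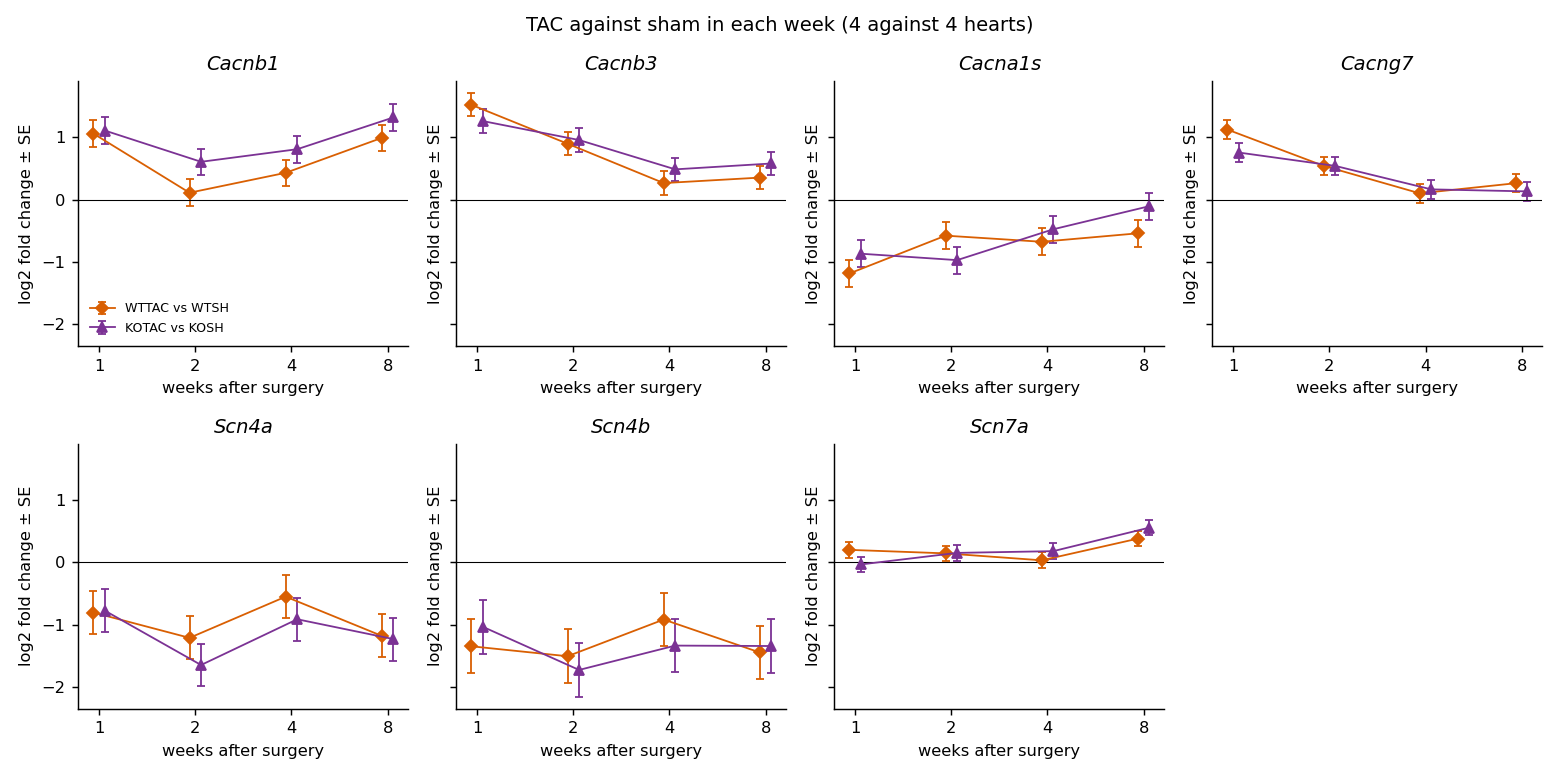
Log2 fold change of FPKM + 1 of TAC against sham (± SE) by week after surgery in WT and KO, for 7 called members, 4 against 4 hearts each. Cacnb3 and Cacng7 are highest at week 1 (1.52 and 1.12 in WT), and Cacna1s is lowest at week 1 in WT (-1.19).

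The change of the TAC effect over time was tested itself, as the effect of both genotypes at week 8 minus that at week 1. It was called for 5 of 16 members (14.7% of all genes). Of the 2011 genes called, 1855 were lower, and the median of all genes was -0.12. Among the 5 members, the effect was smaller at week 8 for Cacnb3 (-0.93 ± 0.19, adjusted p = 0.000386) and Cacng7 (-0.74 ± 0.15, adjusted p = 0.000326). For Cacna1s the difference was 0.70 ± 0.22 (adjusted p = 0.02), a smaller fall at week 8, and for Scn7a it was 0.39 ± 0.13 (adjusted p = 0.0298), a larger rise. Without the 8 hearts with high atrial markers, 5 of which were week 1 hearts, 2 members were called, both lower. At week 4 minus week 1, 3 members were called, all lower, among them Cacnb3 at -1.02 ± 0.19 (adjusted p = 0.000103) and Cacng7 at -0.81 ± 0.15 (adjusted p = 0.000101), beside 26.1% of all genes. Of the 3565 genes called there, 3521 were lower, and the median of all genes was -0.19. Scn4b and Scn4a gave -0.20 ± 0.43 and -0.42 ± 0.35 for week 8 minus week 1, with intervals too wide to tell whether their fall changed, and Cacnb1 gave 0.07 ± 0.21. In sham hearts, week 8 vs. week 1 was called for no member and for 0.315% of all genes, with 3 members at an unadjusted p under 0.05.

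Deletion of Ndufs4 did not move a member past the threshold. KOSH vs. WTSH was called for 0 of 16 members (0.0513% of all genes), with 1 at an unadjusted p under 0.05, and KOTAC vs. WTTAC for 0 of 16 (0.820%), with 4. Among the 4 were Cacnb1 (0.35 ± 0.11, adjusted p = 0.0909, 95% interval 0.14 to 0.57), Cacna1g (-0.29 ± 0.11, adjusted p = 0.219) and Cacna1h (-0.19 ± 0.08, adjusted p = 0.264). For Cacnb1 the value was 0.38 after median-of-ratios scaling (adjusted p = 0.0518) and 0.40 after quantile normalization (adjusted p = 0.0306), where it was called. The interaction of genotype and TAC was called for 0 members and 0% of all genes, with 312 genes and 2 members, Cacnb1 (0.31 ± 0.15) and Cacna1g (-0.35 ± 0.16), at an unadjusted p under 0.05. For Scn4b the interval of the interaction ran from -0.67 to 0.56, so differences of moderate size between the genotypes could not be seen in this gene.

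The proteins that bind these channels were taken from 2 lists. Of 13 sodium channel partners 12 were tested, of which 3 were higher and 2 lower in WTTAC vs. WTSH, and 3 higher and 3 lower in KOTAC vs. KOSH. Among all genes 48.2% were higher and 11.7% lower in WT, and 48.0% and 14.0% in KO, so 3 of 12 higher is below that share. Pkp2, a desmosomal protein of the intercalated disc, was higher (0.47 ± 0.07, adjusted p = 2.08e-07, and 0.54 ± 0.07, adjusted p = 5.15e-09), as was Cav3, the muscle caveolin (0.36 ± 0.07 and 0.39 ± 0.07). Fgf13, an intracellular factor that binds the tail of sodium channels, was lower, from a median of 59.1 FPKM in WTSH to 40.9 in WTTAC and from 60.8 in KOSH to 38.2 in KOTAC (-0.70 ± 0.15, adjusted p = 9.63e-05, and -0.80 ± 0.15, adjusted p = 1.05e-05). The list's median was 0.02 and -0.02, beside 0.14 and 0.13 for all genes.

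Of 16 calcium channel partners 12 were tested, with 8 higher and 1 lower in WTTAC vs. WTSH and 6 higher and 2 lower in KOTAC vs. KOSH, and list medians of 0.25 and 0.18. Of all genes tested 48.2% were higher and 11.7% lower in WT and 48.0% higher and 14.0% lower in KO, and 6 of 12 higher in KO is near that share. Bin1, which shapes the T-tubules where L-type channels sit, rose from a median of 2.40 FPKM in WTSH to 4.49 in WTTAC and from 2.33 in KOSH to 4.28 in KOTAC (0.73 ± 0.09, adjusted p = 8.8e-10, and 0.87 ± 0.09, adjusted p = 4.87e-12). Gem, a small GTPase that binds calcium channel beta subunits and inhibits the current, rose from 1.13 to 2.36 and from 1.08 to 2.38 FPKM (0.58 ± 0.08, adjusted p = 1.15e-08, and 0.68 ± 0.08, adjusted p = 1.32e-10). Calm2, a calmodulin gene, was higher (0.51 ± 0.09 in both), and the kinase anchor Akap7 was lower (-0.33 ± 0.07 and -0.49 ± 0.07). Neither list was called in any gene in KOSH vs. WTSH.

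The remaining members stayed at low levels in every condition and were accounted for by their levels. Scn3a, Cacna1d, Cacnb4 and Scn2b had condition medians of 0.102 to 0.255 FPKM, with highest single hearts of 1.11 FPKM (Cacnb4) and 0.918 (Scn3a). In the fit with no filter, Cacnb4 was lower in KO (-0.18 ± 0.07, adjusted p = 0.0318) and Scn2a1 higher in KO (0.06 ± 0.02, adjusted p = 0.0225). Scn2a1 and Cacna2d3 had condition medians between 0.0377 and 0.0825 FPKM. The alpha subunits Scn1a, Scn8a, Scn9a, Cacna1b, Cacna1e and Cacna1i, Cacna1f, Cacna2d4, Scn11a, and the gamma subunits Cacng3, Cacng5 and Cacng8 had a median of at most 0.0603 FPKM in each condition. Annotated genes on the opposite strand cover at most 3.81% of the exon bases of a tested member (Cacna1a) and 16.0% of those of Cacnb4, and the counting was not stated to use strand.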

How the data were processed

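RNA-seq was run on 64 mouse hearts, 4 in each of 16 groups. The authors made the deposited FPKM values with FastQC, TopHat and Cufflinks from paired-end 50 base reads on mm9 with Ensembl release 66, keeping reads that mapped to 1 place with under 2 mismatches. Tool versions are not given in the sources used here, and the depth is unknown. FPKM share a total within a library, so a rise of abundant genes lowers the others.

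Values were taken as log2(FPKM + 1). Genes with at least 1 FPKM in at least 4 libraries (13653 of 30285) were fitted with limma 3.58.1 with a trend (R 4.3.3), a mean for each group and all 64 hearts sharing 1 estimate of the spread. Calls are Benjamini-Hochberg adjusted p under 0.05 over all genes tested. P-values measure the spread between hearts. Single genes below the filter had permutation tests (scipy 1.17.1). On simulated data, 93% of genes changed by 0.5 and 99% of those changed by 1 on the log2 scale were recovered in WTTAC vs. WTSH, with 11 false calls. For week 1 of the same comparison 53% and 82% were recovered, with 10.

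Hearts with the same number did not deviate together (median r of 77 pairs 0.0148, beside -0.0048 for 307 other pairs), so the numbers were not used as pairs. Gene positions are from GENCODE vM1 on mm9, which held 39 of the 40 members. The members and lists were chosen with earlier results of these data known. Those called between conditions have full values, those among the 8 with the largest test statistic have single hearts, and the partner lists name genes among the 4 with the largest. Results for some of these genes are not reported here. Alternatives changed the pseudocount, filter, scaling, variance model, weights, hearts, call rule and a length correction.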

Additional observations from a re-analysis of the deposited data

Results flagged for a closer look

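Within each group of 4 hearts the highest or lowest heart was compared with the other 3 for each tested member, using Dixon's ratio. In all, 256 groups were compared, and 20 of those of the members reported here had a heart that stood apart, 14 high and 6 low. The 256 include members not reported here, any flags of which are left out of the 20. No rate is therefore set beside chance, which gives about 1 in 20. The 20 flags fell on 18 hearts and 12 members.

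Among sodium channel subunits, Scn4a was at 5.01 FPKM in heart 4 of KOSH week 2 and at 6.62 to 6.78 in the other 3. Scn4a was at 8.81 FPKM in heart 3 of WTSH week 1 and at 5.13 to 5.65 in the other 3. Scn4a was at 8.83 FPKM in heart 4 of WTSH week 8 and at 4.82 to 5.38 in the other 3. Scn4a was at 6.14 FPKM in heart 5 of WTTAC week 1 and at 2.25 to 2.45 in the other 3. Scn4b was at 14.0 FPKM in heart 2 of WTTAC week 8 and at 2.91 to 3.31 in the other 3. Scn7a was at 2.93 FPKM in heart 3 of WTSH week 4 and at 3.90 to 4.01 in the other 3. Scn7a was at 4.08 FPKM in heart 4 of WTSH week 8 and at 3.51 to 3.52 in the other 3.

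Among calcium channel subunits, Cacna1c was at 33.1 FPKM in heart 3 of KOSH week 1 and at 23.4 to 24.9 in the other 3. Cacna1c was at 29.0 FPKM in heart 3 of KOTAC week 1 and at 22.5 to 23.4 in the other 3. Cacna1g was at 1.68 FPKM in heart 3 of KOTAC week 2 and at 3.15 to 3.23 in the other 3. Cacna1h was at 0.753 FPKM in heart 4 of KOTAC week 2 and at 0.210 to 0.262 in the other 3. Cacna1s was at 9.54 FPKM in heart 1 of KOSH week 2 and at 7.00 to 7.20 in the other 3. Cacna1s was at 5.003 FPKM in heart 2 of KOTAC week 2 and at 2.90 to 3.06 in the other 3. Cacna1s was at 6.002 FPKM in heart 3 of WTTAC week 2 and at 4.76 to 4.91 in the other 3. Cacna2d1 was at 25.6 FPKM in heart 3 of KOTAC week 8 and at 19.3 to 20.4 in the other 3. Cacna2d1 was at 27.0 FPKM in heart 1 of WTTAC week 1 and at 30.8 to 31.3 in the other 3. Cacna2d2 was at 2.24 FPKM in heart 2 of WTTAC week 1 and at 0.636 to 0.664 in the other 3. Cacnb1 was at 4.60 FPKM in heart 3 of KOTAC week 4 and at 5.46 to 5.51 in the other 3. Cacnb2 was at 13.9 FPKM in heart 2 of KOSH week 8 and at 18.3 to 18.4 in the other 3. Cacnb3 was at 0.912 FPKM in heart 1 of KOSH week 2 and at 0.754 to 0.762 in the other 3.

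The heart of WTTAC week 8 that kept the level of Scn4b in sham hearts is heart 2, and without it 7 members were called in WTTAC vs. WTSH at week 8 in place of 4. Of the 8 hearts with high atrial markers, heart 2 of WTTAC week 1 stood apart in Cacna2d2 and heart 3 of KOSH week 1 in Cacna1c, and the part of atrial tissue in these values was not tested. Of the 4 length-biased libraries, heart 3 of WTTAC week 2 stood apart in Cacna1s. Hearts 3 and 4 of KOTAC week 2, also among them, stood apart in Cacna1g and Cacna1h.

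The TAC effect differed between weeks for 5 members by limma's test of the difference, beside 14.7% of all genes for week 8 minus week 1. Among these members, week 8 minus week 1 was -0.93 for Cacnb3, -0.74 for Cacng7, 0.70 for Cacna1s and 0.39 for Scn7a on the log2 scale. Week 4 minus week 1 was -1.02 for Cacnb3 and -0.81 for Cacng7. No member moved one way in every heart of one genotype and the opposite way in every heart of the other.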

How the results depend on the processing

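The calls of Cacnb1, Cacnb3, Cacng7, Scn4a, Scn4b, Cacna1s and Cacnb2 in both TAC comparisons were kept without any single heart and under every alternative that tested them except a fold change of at least 2 (Cacnb3 and Cacng7 were not tested at a filter of 5 FPKM). Cacna1c was not stable, and in KOTAC vs. KOSH without week 2 it was 0.000503. A fold change of at least 2 was taken on FPKM + 1, which understates changes of members at a few FPKM. Cacnb3, for example, did not reach it, although its median FPKM in TAC over sham was 2.13 in WT and 2.15 in KO. This rule left 1 member in WTTAC vs. WTSH and 2 in KOTAC vs. KOSH. It left 3, 4, 1 and 3 in KO at weeks 1, 2, 4 and 8, 2 in WT at weeks 2 and 8, and 0 for week 8 minus week 1. KOTAC vs. WTTAC gave 1 member with median-of-ratios scaling or array weights and 2 with quantile normalization. Array weights gave 5 in WT at week 2, 3 at week 4 and 8 at week 8, 5 in KO at week 4, 5 for week 4 minus week 1 and 2 for sham hearts. Without the 4 length-biased libraries there were 1 in WT and 5 in KO at week 2 and 5 in KO at week 4, as without week 2 (5) and with no filter (5). A filter of 5 FPKM, which tests fewer genes, gave 3 in KO at week 1, 3 for week 8 minus week 1 and 1 for week 4 minus week 1. Quantile normalization gave 11 in KO at week 1, and fitting only the hearts compared gave 4 in WT at week 2. Without the hearts with high atrial markers, an alternative chosen after seeing the data, there were 5 in WT at week 1, 1 in KO at week 4, 2 in WT at week 8 and 2 for week 8 minus week 1. With the replicate block, numbers that only share a name, there were 8 in WTTAC vs. WTSH, 11 in KOTAC vs. KOSH, 1 in KOTAC vs. WTTAC, 0 in WT at week 8 and 5 for week 4 minus week 1, with Cacnb1 called in KOTAC vs. WTTAC (0.49, adjusted p = 0.00736), and neither Scn7a in WT (adjusted p = 0.112) nor Cacna1h in KO (adjusted p = 0.0579). A linear correction for transcript length left Cacna1c at -0.25 in both genotypes, still called. It hardly moved the estimate (-0.255 to -0.252 in WT and -0.253 to -0.251 in KO), so it cannot tell whether the call rests on the 4 length-biased libraries. Except where a construction is named, the cause was not tested. Leaving out 1 heart gave 9 to 10 in WTTAC vs. WTSH, 11 to 13 in KOTAC vs. KOSH, 0 to 1 in KOTAC vs. WTTAC, 5 to 8 and 5 to 9 in WT at weeks 1 and 2, 1 to 7 at week 8, 6 to 9, 8 to 11, 1 to 3 and 5 to 7 in KO at weeks 1 to 8, 4 to 5 for week 8 minus week 1 and 3 to 4 for week 4 minus week 1. KOTAC vs. WTTAC went from 0 to 1 without heart 6 of KOTAC week 1, heart 4 of WTTAC week 2 or heart 2 of KOTAC week 8. The depth is unknown, so no limit on the low members can be given.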
